A study of Mus musculus with 8 samples.

Results

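The miRNAs mmu-miR-192, mmu-miR-194 and mmu-miR-215 (miR-192, miR-194 and miR-215 from here on) are 3 of the 567 mouse miRNAs on the array, taken by name from every deposited array file. They were chosen by their cluster membership and with their detection and their difference between CpG-exposed and untreated cells on these same arrays already known, so these values are given here as a description and not as a test. The cells were dendritic cells grown from bone marrow of C57BL/6 mice in GM-CSF at 40 ng/ml and collected on day 9 as the non-adherent cells. There were 4 untreated samples, called medium alone in the design text and PBS in the treatment label, and 4 samples left overnight with 10 µM of ODN1826, a class B CpG oligonucleotide and ligand of the Toll-like receptor TLR9. All groups share the strain, the GM-CSF culture and the labelling with Cy3. No sample had a control oligonucleotide. The labels number the replicates and give same-numbered untreated and CpG samples a shared name. They do not say whether each replicate came from its own mouse or culture, and the spread behind a p-value may thus be technical only.

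These miRNAs come from a pair of small clusters, each with a miR-194 hairpin beside a hairpin of the miR-192 and miR-215 kind. In human tumour cells their transcription is raised by p53, the DNA damage response factor, and they restrain the cell cycle. They are best known as abundant miRNAs of liver, gut and kidney epithelium. A miRNA finds its targets mainly through its seed, bases 2 to 8 from the 5′ end, so miRNAs with the same seed share many predicted targets.

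The mature sequences are shown because they set which members can act on the same targets and which the array can tell apart. All 3 names matched a 5p arm in RefSeq (GRCm38.p6), and the seed is in capitals.
miR-192: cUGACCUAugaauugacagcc
miR-215: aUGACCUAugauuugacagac
miR-194: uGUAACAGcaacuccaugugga
miR-192 and miR-215 had the seed UGACCUA in common, and no other of the 1679 mature miRNA names in the RefSeq table had it. The seed of miR-194, GUAACAG, occurred in miR-194 alone. Below, the bases that differ between miR-192 and miR-215 are in capitals.
miR-192: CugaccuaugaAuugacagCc
miR-215: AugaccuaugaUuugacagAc
They were identical at 18 of 21 bases. The substitutions from miR-192 to miR-215, counted from the 5′ end, were C1A, A12U and C20A.

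The 2 hairpins that yield miR-194 are shown because they give the same mature miRNA, in capitals, so that no probe for it can tell the loci apart.
Mir194-1: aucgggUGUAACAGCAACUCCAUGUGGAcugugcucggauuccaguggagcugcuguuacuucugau
Mir194-2: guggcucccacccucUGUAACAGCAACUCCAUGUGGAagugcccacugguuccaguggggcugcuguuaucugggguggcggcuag
In GRCm38.p6, Mir194-1 lies at chr1:185313319-185313385 on the plus strand, 195 bases before Mir215 at chr1:185313581-185313692, and both are within the span of Iars2, the gene of a mitochondrial isoleucine tRNA ligase. Mir194-2 lies at chr19:6264643-6264728 on the plus strand, 115 bases before Mir192 at chr19:6264844-6264932. The array annotation places its miR-194 probes at the chromosome 1 locus only, which is a choice of label and not a measurement of that locus.

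Each miRNA had 2 probes of different length with 10 spots each. In the array annotation, on mm9, the probes for miR-192 cover 19 and 18 bases, chr19:6264859-6264877 and chr19:6264860-6264877. Those for miR-194 cover 16 and 15 bases, chr1:187137210-187137225 and chr1:187137211-187137225, and those for miR-215 cover 18 and 17 bases, chr1:187137492-187137509 and chr1:187137493-187137509. Taken as the 3′ part of the mature miRNA, the targets of the longer probes are, in capitals,
miR-192: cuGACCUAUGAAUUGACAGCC
miR-194: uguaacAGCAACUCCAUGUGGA
miR-215: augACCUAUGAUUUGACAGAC
so that 2 of the differences between miR-192 and miR-215, A12U and C20A, fall inside the stretch read by either probe pair.

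miR-192 and miR-194 were detected on all 8 arrays and miR-215 on none, by the detection flag in the deposited files. The signal of miR-192 on the arrays overlapped between untreated and CpG-exposed cells. Before any scaling, that of miR-194 over both probes was higher on every CpG array than on any untreated one. On the longer miR-194 probe alone, which carried most of the signal, the groups overlapped. The separation thus depended on the shorter probe, few of whose spots were well above background. The CpG arrays were brighter as a whole, with a 75th percentile of miRNA signal of 157 to 280.5 intensity units against 101 to 144, and after division by it miR-192 was lower with CpG and miR-194 overlapped. The ratio of miR-194 to miR-192 within an array, which no such scaling can move, was higher on every CpG array than on any untreated one. The gap between the groups was small beside the errors that the files give for both signals.

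The deposited total gene signal of miR-192, an intensity per array after background subtraction and without scaling between arrays, was 18.0 in untreated replicate 1, 22.1 in replicate 2, 19.7 in replicate 3 and 17.1 in replicate 4. In the CpG samples it was 15.1, 25.9, 18.4 and 30.8 in replicates 1 to 4. CpG replicates 2 and 4 lay above all untreated arrays, replicate 1 lay below all of them and replicate 3 lay among them. The errors that the files give for these values were between 2.05 and 3.1 units. The group means were 19.2 ± 2.22 untreated and 22.6 ± 7.15 with CpG (SD, n = 4 each).

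For miR-194 the total gene signal was 11.1, 13.9, 12.5 and 10.99 in untreated replicates 1 to 4. It was 15.2, 18.2, 15.6 and 21.9 in CpG replicates 1 to 4. The groups did not overlap, and their means were 12.1 ± 1.34 untreated and 17.7 ± 3.09 with CpG (SD, n = 4 each). On the longer probe alone they overlapped, at 12.9 to 17.7 units untreated and 17.1 to 27.0 with CpG. The errors in the files, 1.83 to 2.73 units, are larger than the gap between the highest untreated and the lowest CpG value. Of the 212 miRNAs that could be tested, 39.6% had unscaled values that were higher with CpG without overlap between the groups.

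miR-215 had a total gene signal between -1.06 and -0.029 in the untreated and between -1.23 and 0.26 in the CpG samples, with errors in the files of 1.42 to 2.23 units. All 8 values were smaller in size than their own errors. Of its 160 spots over all arrays, 1 was well above background. Signal on the negative control spots averaged between -0.52 and 0.90 units on the 8 arrays, with an SD over spots of 1.41 to 2.11, so that miR-215 was not detectable at this signal over background in either group and no fold is given. The miR-215 probes thus stayed at background on arrays where the 19-base probe for miR-192, a miRNA with the same seed, did not.

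**Figure D1:**
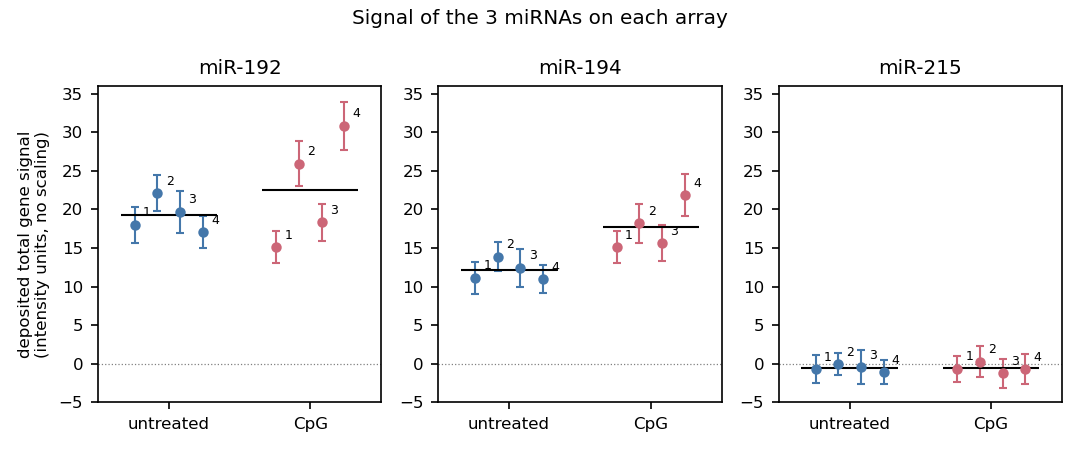
Deposited total gene signal (intensity units, not scaled between arrays) of miR-192, miR-194 and miR-215 in 4 untreated (blue) and 4 CpG (red) samples; points are arrays with their replicate number, bars are the errors given in the files and black lines are group means. The groups overlap for miR-192, do not overlap for miR-194, and miR-215 lies around 0 on every array. On the longer miR-194 probe alone, not drawn here, the groups overlap.

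miR-192 was carried mainly by its 19-base probe. The 19-base probe read 18.8 to 25.2 units on the untreated and 16.2 to 32.7 on the CpG arrays, and all 40 of its spots in each group were well above background. The 18-base probe read 6.12 to 7.62 and 5.17 to 12.5 units, with 6 of 40 untreated and 13 of 40 CpG spots well above background. After the scaling described next, the 19-base probe was at -0.64 and the 18-base probe, most of whose spots were not well above background, at -0.53 on the log2 scale, both without overlap. When every miRNA was read from its brighter probe and the arrays were scaled on those probes, miR-192 was at -0.49 and no longer past the threshold of the fit given below.

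miR-194 was carried by its 16-base probe. That probe read 12.9 to 17.7 units untreated and 17.1 to 27.0 with CpG, with 39 and 40 of 40 spots well above background. The 15-base probe read 2.17 to 3.16 and 4.08 to 5.10 units, with 1 of 40 spots well above background in each group, and the 99th percentile of the negative control spots was between 3.01 and 7.64 units. No difference is read from the 15-base probe at that level. The groups overlapped on the 16-base probe with and without scaling, and its scaled log2 difference was -0.30.

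To compare arrays of unequal brightness, each array's signals were expressed relative to their 75th percentile, taken over the 177 miRNAs with detection on every array, and then put on the log2 scale, so that 0 is that percentile. On this scale miR-192 was -2.99, -2.92, -3.37 and -3.27 in untreated replicates 1 to 4. It was -3.87, -3.73, -3.78 and -3.63 in CpG replicates 1 to 4. Every CpG value lay below every untreated value, as was the case for 19.8% of the tested miRNAs. The means were -3.14 ± 0.21 and -3.75 ± 0.10 (SD, n = 4 each), a difference of -0.62 (SE 0.15), or 0.653 times the untreated level.

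Scaled miR-194 was -3.68, -3.60, -4.03 and -3.91 in untreated replicates 1 to 4. In CpG replicates 1 to 4 it was -3.87, -4.23, -4.02 and -4.13. The groups overlapped, CpG replicate 1 lying above untreated replicates 3 and 4, and CpG replicate 3 just above untreated replicate 3. The means were -3.80 ± 0.20 and -4.06 ± 0.16 (SD, n = 4 each), a difference of -0.26 (SE 0.15), or 0.837 times the untreated level. All 8 scaled values of miR-215 were at the floor of -6.55 and have no order.

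**Figure D2:**
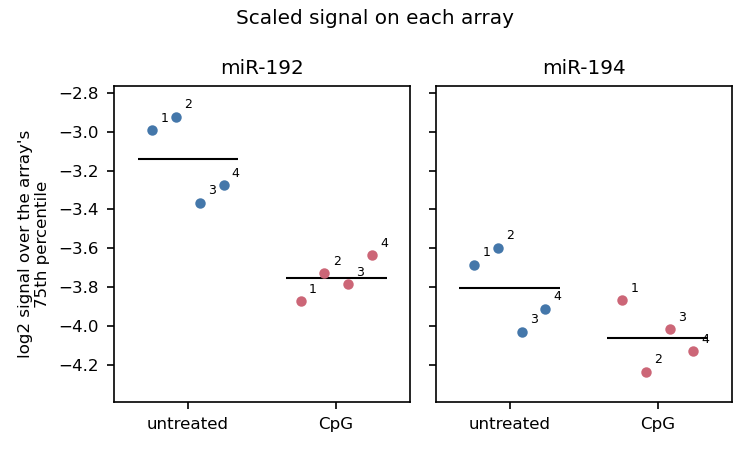
Log2 signal of miR-192 and miR-194 over the 75th percentile of each array, for 4 untreated (blue) and 4 CpG (red) samples; points are arrays with their replicate number and black lines are group means. The CpG values of miR-192, -3.87 to -3.63, all lie below the untreated ones, while those of miR-194 overlap.

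In the limma fit over the 212 tested miRNAs, 1 of the 2 tested members, miR-192, was past the threshold of an adjusted p of 0.05, in the lower direction, and miR-194 was not. Of all tested miRNAs 6.6% were called lower, and since the members were chosen with this contrast known, nothing is read from that count. The call of miR-192 was lost without untreated replicate 1 (-0.57), untreated replicate 2 (-0.54), CpG replicate 2 (-0.63) or CpG replicate 3 (-0.61), and without CpG replicates 2 and 4 together (-0.69). It was also lost with the 75th percentile taken over all mouse miRNAs (-0.56), the median (-0.62) or the median of ratios (-0.37) as the scaling, and it was made in 17 of 29 alternatives. Its direction turned without scaling, where miR-192 was at 0.18 (SE 0.26) and miR-194 at 0.54 (SE 0.21) on the log2 scale. miR-192 was at -0.057 (SE 0.16), and miR-194 turned to 0.30 (SE 0.12), when the arrays were scaled on the bright control features named hur.

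Dividing an array by 1 number shifts the log2 difference of every miRNA above the floor equally, so the distance of a member to the median of all tested miRNAs is nearly the same by construction with or without that step. The median difference of the tested miRNAs was -0.19 scaled and 0.60 unscaled, a shift of 0.79. miR-192 lay at -0.42 and miR-194 at -0.064 relative to the scaled median. Within row 1 and row 2 of arrays on the slide, with 2 arrays of each group in each, miR-192 differed by -0.62 and -0.61 scaled, and by 0.31 and 0.060 unscaled. miR-194 differed by -0.20 and -0.31 scaled, and by 0.73 and 0.36 unscaled.

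**Figure D3:**
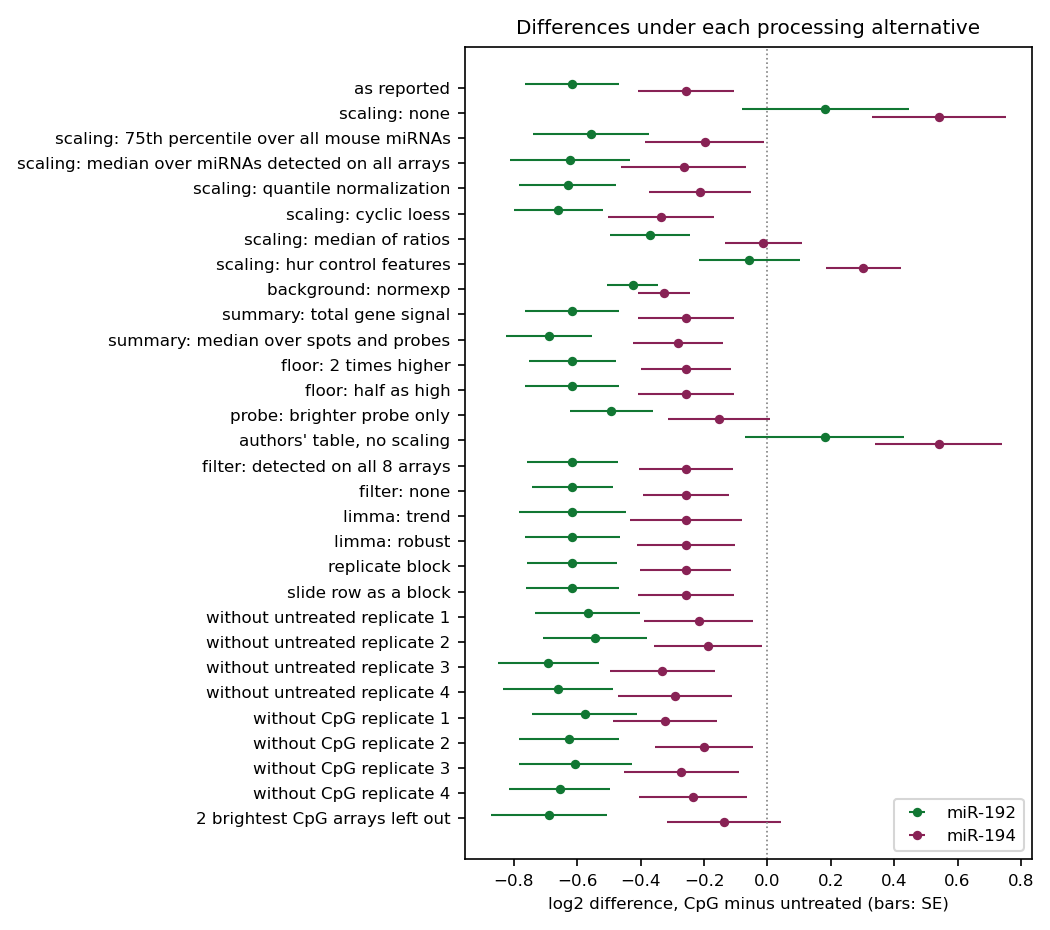
Log2 difference between CpG and untreated samples (points, bars are SE) for miR-192 (green) and miR-194 (purple) as reported and under each processing alternative. miR-192 lies between -0.69 and -0.37 except on the hur control features, at -0.057, and in both settings without scaling, at 0.18.

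The ratio of miR-194 to miR-192 was formed within each array from the mean intensities over both probes. Its height depends on the probes and is not read here, only how it varied between arrays. It was 0.619, 0.627, 0.632 and 0.644 in untreated replicates 1 to 4. It was 1.00, 0.703, 0.851 and 0.710 in CpG replicates 1 to 4. The untreated arrays lay close together and the CpG arrays lay above them and apart from each other, replicate 1 highest. The files give errors of 2.05 to 3.1 units for the total gene signal of miR-192 and 1.83 to 2.73 for miR-194. Relative to its signal, either error on any array was larger than the gap between the groups, 0.644 to 0.703. It was also larger than the spread of the untreated ratios. These errors were not carried into the ratio, so its SD and SE do not include them as such. On the log2 scale the ratio was -0.67 ± 0.024 untreated and -0.31 ± 0.24 with CpG (SD, n = 4 each), a difference of 0.36 (SE 0.12).

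With only the 19-base and the 16-base probe the ratio was 0.712, 0.703, 0.724 and 0.685 in untreated replicates 1 to 4, and 1.05, 0.787, 0.929 and 0.825 in CpG replicates 1 to 4. The groups did not overlap here either, and the log2 difference was 0.34 (SE 0.096). Among all 15576 pairs of miRNAs detected on all 8 arrays, 18.3% had ratios that did not overlap between the groups, so that a separation of this kind was common on these arrays. The ratio does not show which of the signals differed. With normexp background correction its log2 difference was 0.098. That setting added 50 units to every spot, more than the signal of either miRNA on any array, and such an addition compresses a ratio. The ratio was taken up after the data were seen, with members chosen on the same contrast, so it is a description and was not tested.

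**Figure D4:**
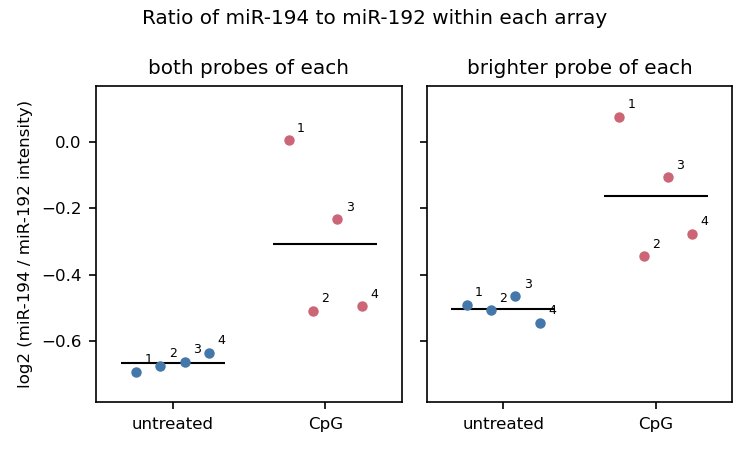
Log2 ratio of miR-194 to miR-192 intensity within each array, from both probes of each miRNA (left) and from the brighter probe of each (right), in 4 untreated (blue) and 4 CpG (red) samples; points are arrays with their replicate number and black lines are group means. The untreated values lie together, at -0.69 to -0.64 on the left, and the CpG values lie above them at -0.51 to 0.0050. The errors that the files give for the signals are not drawn.

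Among the 177 miRNAs detected on all arrays, those whose scaled log2 signal ran most alike with miR-192 over the 8 arrays were miR-223 (Pearson r = 0.944), miR-20b (0.940) and miR-697 (0.921). After the group means were taken out the values were 0.693, 0.685 and 0.825. For miR-194 they were miR-17 (r = 0.938), miR-27a (0.931) and miR-301a (0.905), with 0.896, 0.885 and 0.843 after the group means were taken out. miR-223 is a miRNA of myeloid cells, and miR-17 belongs to a polycistronic cluster that promotes cell proliferation. Between miR-192 and miR-194 themselves r was 0.741, and 0.50 within groups, rank 42 for either among the miRNAs compared with it. These values describe 8 arrays that share the scaling step, and which miRNAs ranked first changed with the processing.

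The list of other miRNAs linked to p53 held the miR-34 family, whose transcription p53 raises directly, with miR-107, and miR-143, miR-145, miR-15a and miR-16, whose transcription or processing has been linked to it. It was put together with earlier results of these data known. All 10 were on the array, 7 were detected on at least 1 array and 5 could be tested. Of these 0 were called higher and 1, miR-16, was called lower, against 14.2% of all tested miRNAs called in either direction. The median log2 difference of the 5 was -0.33, beside -0.19 for all tested miRNAs, and without scaling 0.47 beside 0.60.

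miR-34a, the best known p53 target among miRNAs, overlapped between the groups. Its scaled log2 signal was 2.40, 1.95, 1.96 and 1.42 in untreated replicates 1 to 4 and 2.25, 1.70, 1.96 and 1.54 in CpG replicates 1 to 4, a difference of -0.073 (SE 0.23, limma adjusted p = 0.82). Without scaling it was at 0.73 (SE 0.22, limma adjusted p = 0.0293). In that setting 88 of the 212 tested miRNAs were called, all of them higher, and the median of all tested was 0.60. miR-34b-3p was detected on 3 of 4 untreated and 4 of 4 CpG arrays and differed by 0.18 (SE 0.40, limma adjusted p = 0.74). Its kin miR-34b-5p and miR-34c were each detected on 1 array of each group, and miR-34c* on none.

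miR-16, which targets cyclins and BCL2, fell by 0.49 on the log2 scale (SE 0.13, limma adjusted p = 0.0375). It was 2.87, 3.00, 2.88 and 3.06 in untreated replicates 1 to 4 and 2.41, 2.31, 2.53 and 2.60 in CpG replicates 1 to 4, lower on every CpG array. Without scaling it was at 0.31, and on the hur control features at 0.071. With quantile normalization it was at -0.17 (limma adjusted p = 0.307), with cyclic loess at -0.28 (adjusted p = 0.142) and with median of ratios at -0.24 (adjusted p = 0.154), short of the call. The call was also lost with the 75th percentile over all mouse miRNAs (adjusted p = 0.137) and the median (adjusted p = 0.0898). It kept the call in 13 of 28 alternatives, losing it also without any 1 of the untreated replicates (adjusted p = 0.0654, 0.115, 0.054 and 0.12 in order) or CpG replicate 2 or 3 (adjusted p = 0.0766 and 0.0994). miR-15a, from the same family, differed by -0.42 (SE 0.15, limma adjusted p = 0.078) and miR-107 by -0.33 (SE 0.14, limma adjusted p = 0.111). Like miR-16, both were lower without overlap between groups when scaled, as were 19.8% of all tested miRNAs. Both were above 0 when the arrays were not scaled. miR-143 and miR-145, abundant in smooth muscle and stroma, were not detected on any array.

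**Figure D5:**
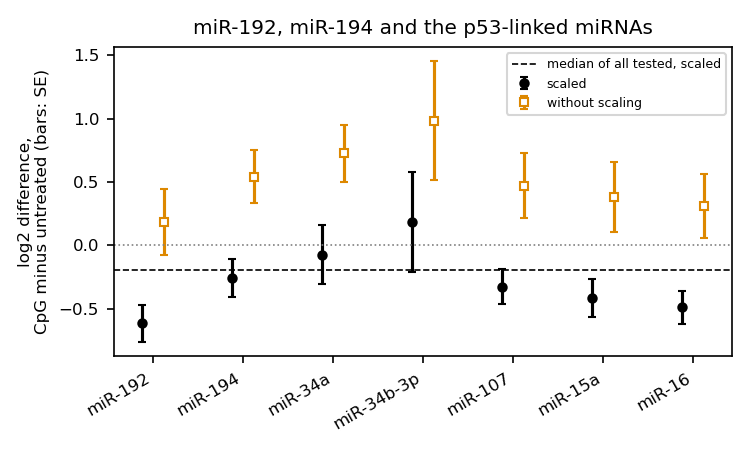
Log2 difference between CpG and untreated samples (bars are SE, n = 4 each) for miR-192, miR-194 and the 5 tested p53-linked miRNAs, scaled (black circles) and without scaling (open orange squares); the dashed line is the scaled median of all tested miRNAs, -0.19. All 7 lie above 0 without scaling, and 6 of them lie below 0 when scaled.

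Marker miRNAs of liver, of epithelium, and of pancreas and enteroendocrine cells were set beside miR-192 and miR-194. The lists held no marker of kidney, so they cover only a part of the tissues named above. miR-122, which defines hepatocytes, was detected on no array, nor were the 4 miRNAs of pancreas and enteroendocrine cells, among them miR-375. Of 7 epithelial miRNAs, miR-200a, miR-429, miR-203 and miR-205 were detected on no array. miR-200b was detected on all 8 arrays, and miR-200c and miR-141 on 1 of 4 untreated and 4 of 4 CpG arrays each. The scaled levels of the epithelial list summed to 0.158 to 0.190 untreated and 0.131 to 0.145 with CpG, with log2 differences of -0.59 (SE 0.20, limma adjusted p = 0.0764) for miR-200b, -0.17 for miR-200c and -0.063 for miR-141. None of the 3 was called, and their median difference was -0.17 scaled and 0.62 unscaled, beside -0.19 and 0.60 for all tested miRNAs. The sum was lower with CpG, as scaled miR-192 was, and it includes the 4 undetected miRNAs. It was not compared with miR-192 array by array, and a part of epithelial miRNAs in the miR-192 result was not tested. Fewer cells of a kind and less of a miRNA per cell cannot be told apart in RNA from whole cultures.

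The miRNAs listed as myeloid are given as a description, and they do not test the dendritic cell label. miR-223, miR-142-3p and miR-142-5p were each detected on all 8 arrays, and their scaled levels summed to 19.3 to 22.6 untreated and 14.3 to 17.7 with CpG. When scaled, miR-223 fell by 0.60 (SE 0.15, limma adjusted p = 0.0284), while miR-142-3p differed by -0.20 and miR-142-5p by -0.021. The fall of miR-223 was smaller than the shift of 0.79 that scaling gave the median of all tested miRNAs, as was that of miR-192 (-0.62). Both lay below the scaled median of all tested miRNAs, -0.19, a distance that is nearly the same with or without this scaling. Without scaling the median difference of the 3 was 0.60, equal to that of all tested miRNAs. As a median it does not show miR-223, the lowest of the 3. The erythroid miR-451 and miR-144, the lymphoid miR-150 and the stromal miR-199a-5p and miR-214 were detected on no array.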

How the data were processed

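Small RNA within total RNA of 8 samples was measured on 8 one-colour Agilent mouse miRNA arrays of a single slide. Per the file headers, the authors' scanner output was made with Agilent Feature Extraction 9.5.3.1, and the deposited processed signal of each spot is a background-subtracted, detrended intensity without scaling between arrays. Deposited summaries hold a detection flag and a total gene signal for each miRNA. limma is named in the submitters' processing notes, without its role. Of 2080 values deposited by the authors as a series table, 2039 equalled the total gene signal within 0.1% and 41 were 0.01.

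Spots without outlier flags were averaged per probe and probes per miRNA, scaled to the array's 75th percentile over 177 miRNAs (those detected 8 times of 8), set to a floor of 0.0107 and log2-transformed. The 212 miRNAs detected on at least 3 of 4 arrays of a group were fitted with limma 3.58.1 in R 4.3.3 (lmFit, eBayes, two-sided, Benjamini-Hochberg over the 212). In data simulated for this comparison over 212 miRNAs it recovered 80.0% of changes of 1 and 98.6% of changes of 2 on the log2 scale. The simulated noise was independent between miRNAs, with no difference in brightness between arrays. Smaller changes were not simulated, so these rates do not cover differences of the size seen for the members. The members and lists were chosen with earlier results of these data known. The miRNAs named were the members, both kinds of lists and the 3 most alike with each detected member. Scalings, backgrounds, summaries, filters, floors, limma options, blocks and left-out arrays were varied. The normexp background alternative added an offset of 50 units to every spot. The number of arrays limits precision.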

Additional observations from a re-analysis of the deposited data

How the results depend on the processing

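Signal over background limits all 3 miRNAs. The use of the brighter probe alone and the ratio were chosen after seeing the data. No difference of miR-215 could be had under any alternative, since it was not detected. Of 29 alternatives miR-192 stayed lower in 27 and turned to 0.18 without scaling and 0.18 in the authors' table. Among the 27 are the floors, filters, limma options and blocks, which could change its adjusted p but not its difference. miR-192 moved to -0.37 with median of ratios, -0.057 on the hur control features and -0.43 with normexp, and lay between -0.69 and -0.54 without any 1 array. miR-194 turned to 0.54 without scaling, 0.54 in the authors' table and 0.30 on the hur features, moved to -0.013 with median of ratios and lay between -0.33 and -0.19 without any 1 array. Its 2 calls went opposite ways, lower with normexp (-0.33) and higher in the authors' table. Each went the way of most or all calls in its setting. With normexp 139 of 143 calls were lower, and without scaling in the authors' values all 93 calls were higher. The normexp setting also added 50 units to every spot, more than the signal of miR-194 on any array. Neither call is thus read as particular to miR-194. The log2 ratio of miR-194 to miR-192 stayed higher with CpG in all 29, between 0.25 and 0.43 without any 1 array, 0.098 with normexp and 0.55 without CpG replicates 2 and 4. Many of the 29 could not move it. Scalings by 1 factor, floors, filters, limma options and blocks leave this ratio as it is by construction. Of the 3 miRNAs most alike with miR-192, all 3 kept their place in 4 of 22 alternatives, and likewise for miR-194.

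The 30 calls over all tested miRNAs (16 higher, 14 lower) became 88 without scaling (88 and 0), 93 in the authors' table (93 and 0), 72 on the hur features (70 and 2), 143 with normexp (4 and 139), 18 when scaled to the median (11 and 7) and 4 without CpG replicates 2 and 4. They lay between 5 and 68 without any 1 array, being 12, 5 and 17 without untreated replicates 1, 2 and 4 and 68, 11 and 5 without CpG replicates 1, 2 and 3. The p53-linked median turned to 0.47 without scaling, 0.0064 with quantile normalization, 0.23 on the hur features and 0.47 in the authors' table, and lay between -0.39 and -0.26 without any 1 array. Single miRNAs turned as follows. Without scaling and in the authors' table they were miR-34a (0.73, 0.72), miR-107 (0.47, 0.47), miR-15a (0.38, 0.38) and miR-16 (0.31, 0.31), and on the hur features 0.49, 0.23, 0.14 and 0.071. miR-34a also turned to 0.15 with quantile normalization, 0.11 with cyclic loess, 0.17 with median of ratios, 0.070 with normexp, 0.081 without untreated replicate 1, 0.035 without CpG replicate 4 and 0.17 without CpG replicates 2 and 4, and miR-107 to 0.0064 with quantile normalization. Without any 1 array miR-34a lay between -0.24 and 0.081, and miR-34b-3p between -0.21 (untreated replicate 4) and 0.45. miR-34b-3p also turned to -0.30 with normexp and -0.16 without CpG replicates 2 and 4. The cause was not tested.

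The replicate numbers were not taken as pairs. The array descriptions give same-numbered untreated and CpG arrays a shared name but do not call them pairs, so a pairing by culture remains possible. Deviations of same-numbered arrays correlated at 0.277, -0.259, 0.250 and 0.0962, and 2 of 8 samples ran closest with their own number. With the replicate block there were 38 calls, miR-192 stayed at -0.62 and past the threshold, and miR-194 stayed at -0.26 and short of it.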
